A study of Mus musculus with 11 samples.

Results

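Cultured adult mouse microglia given the lipopeptide Pam3CSK4, and no interferon, were set against untreated cultures, and the comparison was followed through surface receptors, transporters, transcription factors and metabolism. It used 5 of the study's 11 libraries, chosen by their labels: 2 Pam3CSK4 libraries, which received the agonist at 100 ng/ml for 24 h, and 3 Control libraries, which received no treatment. The source tissue was the cerebrum, taken from 6 to 8 week old C57BL/6 mice, and both groups had been cultured for 10 to 14 days with added TGF-beta1 (5 ng/ml) and M-CSF (10 ng/ml). In the other 6 libraries the cells were given 20 ng/ml IFN-gamma (interferon-gamma) for 24 h, with Pam3CSK4 before it in 3 of them. The labels do not say whether replicates came from separate animals or cultures, nor when Pam3CSK4 and Control cells were harvested relative to each other, so p-values measure the spread between these libraries, which may be technical.

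Microglia are the resident macrophages of the brain. They sense bacterial lipopeptides through Toll-like receptor 2 (TLR2), which pairs with TLR1 or TLR6. Triacylated lipopeptides such as Pam3CSK4 are read by the TLR2 and TLR1 pair, which signals through the adaptor MyD88 to the NF-kappaB and AP-1 transcription factors. In the healthy brain, TGF-beta and the receptor for M-CSF, CSF1R, maintain microglial identity and survival.

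The libraries held 18296151 and 15536852 counts with Pam3CSK4, against 15033702, 15820681 and 17903428 counts in Control. All 12 microglial and macrophage markers were detected in all 5 libraries, and their summed level was 3740 and 3609 FPKM with Pam3CSK4, against 7681, 8377 and 5730 FPKM in Control (FPKM, fragments scaled to gene length and library size). Of these 12 markers, 7 fell and 2 rose. Control replicate 3 stood apart from the other 4 libraries. The 15 mural and fibroblast markers summed to 3.17 and 4.69 FPKM with Pam3CSK4, against 6.14, 6.55 and 2275 FPKM in Control, and none of them was at 0 in Control replicate 3, where 8 were at 0 in each other Control library. Astrocyte markers summed to 3.31 and 4.45 FPKM with Pam3CSK4, against 2.61, 1.73 and 33.5 FPKM in Control, most of the last being Gja1. The 12 lymphocyte markers summed to 14.9 and 9.89 FPKM with Pam3CSK4, against 0.916, 0.863 and 0.795 FPKM in Control, of which Ighm gave 14.8 and 9.75 FPKM with Pam3CSK4 and at most 0.659 FPKM in Control. The defining lymphocyte genes Cd3e, Cd3d and Cd8a were at 0 in all 5 libraries, as were the neutrophil genes Ly6g, Mpo and Elane. Values without Control replicate 3 are given beside the genes described whose call they changed or whose fold they moved by over 1.5 times, and beside counts in gene lists that moved by at least 2 genes and over 1.5 times. Of the 322 named genes, 18 passed the threshold only without that library. The named genes that passed with it also passed without it. The rule that chose them, given at the end, required this of passing genes outside a fixed panel, so it is no check.

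With Pam3CSK4, 2188 genes were higher and 2344 lower than in Control, which are 20.0% and 21.4% of the 10938 genes tested (edgeR quasi-likelihood test, Benjamini-Hochberg adjusted p under 0.05). Together they were 41.4%. Without Control replicate 3 the counts were 2748 (25.1%) and 2872 (26.3%), 2099 and 2234 genes were called in the same direction both ways, and 0 were called in opposite directions. Without Pam3CSK4 replicate 2 the counts were 1410 and 1463, and without Pam3CSK4 replicate 1 the lower count was 1561. The Pam3CSK4 and Control libraries did not overlap in 59.7% of the genes tested, and the median log2 change over all of them was -0.043. Counts of rises and falls in gene lists below are to be read against the 20.0% and 21.4% over all genes tested. In what follows, "rose" and "fell" are used for genes past this threshold, ± is the standard error of a log2 change, and levels of each library are given in FPKM in the order of replicates. No gene said to have risen or fallen overlapped between the groups, except where stated. The rule that chose the named genes required this outside a fixed panel, so it adds no support. In bulk RNA, fewer cells of a type and less RNA per cell cannot be told apart.

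Beyond the cytokine genes, the largest rises included an acute-phase protein and a pair of less studied genes. Saa3 (ENSMUSG00000040026, chromosome 7, 46711998 to 46715676 on mm10), which encodes an inflammation-induced serum amyloid A protein, stood at 11113 and 13824 FPKM with Pam3CSK4, against 7.14, 7.38 and 66.6 FPKM in Control (log2 change 8.91 ± 0.94, adjusted p = 8.52e-05). Control replicate 3 held more of it than the other Control libraries. Without that library the log2 change was 10.68. Vnn3 (ENSMUSG00000020010, chromosome 10, 23851462 to 23869843), a member of the vanin family of pantetheinases, stood at 172 and 127 FPKM with Pam3CSK4, against 0.404, 0.419 and 0.648 FPKM in Control (log2 change 8.22 ± 0.50, adjusted p = 4.19e-06). Lad1 (ENSMUSG00000041782, chromosome 1, 135818598 to 135833342), which encodes the filament-anchoring protein ladinin, stood at 51.8 and 52.7 FPKM with Pam3CSK4, against 0, 0.016 and 0.425 FPKM in Control (log2 change 8.40 ± 0.90, adjusted p = 8.74e-05), and the fitted value was 12.28 without Control replicate 3, which held most of its few Control reads.

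Large falls were seen in genes that Control cells transcribed at moderate levels. Ramp1, which encodes a partner of the calcitonin receptor-like receptor, stood at 0.17 and 0.12 FPKM with Pam3CSK4, against 23.0, 28.8 and 15.4 FPKM in Control (log2 change -7.27 ± 0.50, adjusted p = 8.36e-06), and Gpr34, a receptor for lysophosphatidylserine that marks microglia, at 0.614 and 0.444 FPKM with Pam3CSK4, against 76.6, 103 and 49.8 FPKM in Control (log2 change -7.20 ± 0.46, adjusted p = 5.6e-06). Slco2b1 (ENSMUSG00000030737, chromosome 7, 99657804 to 99711340), an organic anion transporter, stood at 0.5 and 0.496 FPKM with Pam3CSK4, against 36.0, 40.5 and 27.3 FPKM in Control (log2 change -6.15 ± 0.44, adjusted p = 9.35e-06). Siglecf (ENSMUSG00000039013, chromosome 7, 43351341 to 43359531), an inhibitory receptor for sialic acid, stood at 0.558 and 0.455 FPKM with Pam3CSK4, against 18.7, 26.6 and 12.4 FPKM in Control (log2 change -5.28 ± 0.41, adjusted p = 1.43e-05). Csf1 (ENSMUSG00000014599, chromosome 3, 107741048 to 107760469), the gene of M-CSF, stood at 1.52 and 1.16 FPKM with Pam3CSK4, against 30.7, 42.3 and 54.7 FPKM in Control (log2 change -4.99 ± 0.97, adjusted p = 0.00289). Even the lowest Control library was 54.6-fold above the higher Pam3CSK4 library for Slco2b1, 22.2-fold for Siglecf and 20.2-fold for Csf1. The proteoglycan gene Mamdc2 (-5.85 ± 0.54) and the immediate early gene Ier5l (-4.85 ± 0.72, and -4.14 without Control replicate 3) also fell, and both kept the call whichever library was left out.

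The RefSeq promoter windows (GRCm38.p6, the assembly of mm10; 250 bases before to 50 after the start site) are shown for 6 of the genes with the largest changes, the 3 rises with the highest level with Pam3CSK4 and the 3 falls with the highest level in Control among those with a window, to show which inflammatory motifs their letters hold. Capitals mark every match, on either strand, to GGG and CC with any 5 bases between them (NF-kappaB), TGANTCA (AP-1), GAGGAAGT (PU.1), TTTC repeated with any 2 bases between (interferon response element, ISRE) or TGACGTCA (CRE). Positions are counted from the start site, and overlapping matches run together.
Saa3 (chr7:46715627-46715926, minus strand): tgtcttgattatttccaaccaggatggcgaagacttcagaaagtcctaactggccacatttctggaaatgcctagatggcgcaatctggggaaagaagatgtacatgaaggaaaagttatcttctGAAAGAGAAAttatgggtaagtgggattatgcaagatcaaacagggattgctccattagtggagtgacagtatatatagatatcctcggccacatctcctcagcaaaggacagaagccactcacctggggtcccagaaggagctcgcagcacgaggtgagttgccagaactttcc
Marco (chr1:120504975-120505274, minus strand): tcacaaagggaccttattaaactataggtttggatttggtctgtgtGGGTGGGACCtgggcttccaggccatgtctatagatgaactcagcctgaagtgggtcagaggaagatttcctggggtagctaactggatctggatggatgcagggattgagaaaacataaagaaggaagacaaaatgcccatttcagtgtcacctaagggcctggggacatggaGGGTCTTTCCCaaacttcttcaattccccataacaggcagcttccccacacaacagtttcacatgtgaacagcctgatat
Il12b (chr11:44399813-44400112, plus strand): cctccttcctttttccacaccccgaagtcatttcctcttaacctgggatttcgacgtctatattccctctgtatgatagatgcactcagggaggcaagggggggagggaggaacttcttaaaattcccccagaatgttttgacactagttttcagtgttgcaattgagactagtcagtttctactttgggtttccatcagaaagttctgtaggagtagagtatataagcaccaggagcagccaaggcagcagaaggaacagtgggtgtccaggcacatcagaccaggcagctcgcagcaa
Fcgr3 (chr1:171059354-171059653, minus strand): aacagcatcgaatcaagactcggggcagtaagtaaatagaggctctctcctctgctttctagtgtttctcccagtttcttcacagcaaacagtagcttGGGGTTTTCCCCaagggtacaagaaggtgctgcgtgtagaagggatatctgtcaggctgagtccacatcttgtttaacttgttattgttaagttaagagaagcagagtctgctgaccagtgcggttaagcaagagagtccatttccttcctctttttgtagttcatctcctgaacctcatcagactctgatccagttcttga
Csf1 (chr3:107760420-107760719, minus strand): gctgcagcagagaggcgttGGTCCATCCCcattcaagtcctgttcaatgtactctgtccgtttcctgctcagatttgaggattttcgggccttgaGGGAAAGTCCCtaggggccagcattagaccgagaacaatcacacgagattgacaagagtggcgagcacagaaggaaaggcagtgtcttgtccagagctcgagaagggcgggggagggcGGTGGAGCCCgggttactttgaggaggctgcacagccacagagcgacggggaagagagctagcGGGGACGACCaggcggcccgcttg
Slco2b1 (chr7:99711291-99711590, minus strand): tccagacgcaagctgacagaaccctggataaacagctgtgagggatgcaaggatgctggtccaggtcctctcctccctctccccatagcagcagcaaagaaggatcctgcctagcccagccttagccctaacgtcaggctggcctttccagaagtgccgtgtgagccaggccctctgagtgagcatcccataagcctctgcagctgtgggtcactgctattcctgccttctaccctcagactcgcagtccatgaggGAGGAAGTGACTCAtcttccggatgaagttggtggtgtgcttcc
The Saa3 window held an ISRE match at -125. Marco held NF-kappaB matches at -204, -30 and -29, the last pair overlapping, and Il12b, a cytokine subunit gene, held none of the 5 motifs. Among the genes that fell, Fcgr3 held 3 overlapping NF-kappaB matches from -152 and Csf1 held 5, 1 of them at -154 also matching a stricter form (GGGA and TTTCC with any 1 base between). Slco2b1 held no NF-kappaB match but a PU.1 match at 7 that ran into an AP-1 match at 14. The loose NF-kappaB letters are common. They were in 64.1% of the windows of genes called higher with and without Control replicate 3 and at least 2-fold higher with it. The shares were 63.6% for genes lower by the same rule and 67.3% for all tested genes. The stricter form, added after the data were seen, was in 1.42, 0.848 and 0.508% of the same windows. ISRE letters were in 8.81, 2.97 and 3.3%, AP-1 in 9.09, 5.51 and 5.07%, PU.1 in 4.97, 4.14 and 3.39%, and CRE in 1.85, 2.44 and 3.16%. These shares are of 704, 943 and 10240 windows. Over all 32851 windows in the table the shares were 50.8% for loose NF-kappaB, 0.411% for the stricter form, 3.44% for ISRE, 7.81% for AP-1, 3.2% for PU.1 and 1.79% for CRE. A match describes letters only and is not a bound site. Fcgr3 has 2 windows in the table and Slco2b1 has 3, of which the first is shown.

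**Figure D1:**
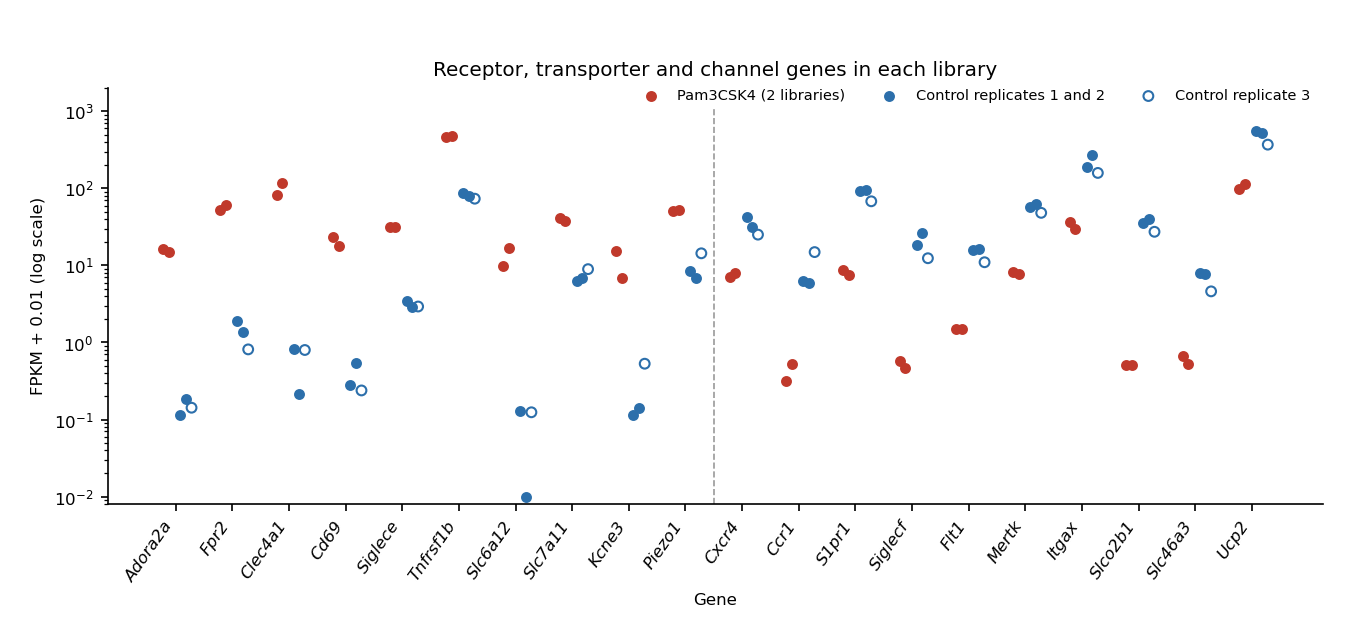
Levels of 20 receptor, transporter and channel genes in each library, as FPKM + 0.01 on a log axis, with Pam3CSK4 libraries in red at the left of each gene and Control libraries in blue at its right (Control replicate 3 as an open circle). The 10 genes left of the dashed line were higher in both Pam3CSK4 libraries than in all 3 Control libraries, and the 10 at its right were lower in both. The rule that named these genes required this. Slc6a12 was at 0 in Control replicate 2.

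Among the genes whose products sense the agonist, the largest change was in the TLR2 partner gene Tlr1, at 16.3 and 23.4 FPKM with Pam3CSK4, against 4.98, 4.98 and 3.53 FPKM in Control (log2 change 2.11 ± 0.21, adjusted p = 5.58e-05). Tlr2 itself stood at 352 and 299 FPKM with Pam3CSK4, against 239, 217 and 186 FPKM in Control (log2 change 0.58 ± 0.17, adjusted p = 0.024), and lost the call when either Pam3CSK4 library was left out. Tlr6, the other partner, stood at 7.77 and 7.12 FPKM with Pam3CSK4, against 5.52, 6.38 and 4.48 FPKM in Control (adjusted p = 0.103), and the co-receptor gene Cd14 at 689 and 745 FPKM with Pam3CSK4, against 353, 325 and 578 FPKM in Control (adjusted p = 0.0811). Neither passed the threshold, although Cd14 did so without Control replicate 3 (log2 change 1.01, adjusted p = 0.0297). Both Pam3CSK4 libraries were above all 3 Control libraries for each gene, but the groups did not overlap in 59.7% of all genes tested. The adaptor gene Myd88 rose by 0.67 ± 0.12 on the log2 scale. In the full comparison, the shares of Toll-like receptors and co-receptors that rose and fell were near the 20.0% and 21.4% over all genes tested. Of 16 tested Toll-like receptors and co-receptors 3 rose and 4 fell (6 rises without Control replicate 2, 5 rises without Control replicate 3, 1 rise without either Pam3CSK4 library and 2 falls without Control replicate 1, Control replicate 2 or Pam3CSK4 replicate 1), with a median log2 change of 0.34. The falls included Tlr13, an endosomal sensor of bacterial ribosomal RNA (40.8 and 33.9 FPKM with Pam3CSK4 and 92.1, 89.0 and 65.1 FPKM in Control; -1.17 ± 0.20), and Ly86, the partner of the TLR4 homologue CD180 (333 and 299 FPKM with Pam3CSK4 and 691, 823 and 586 FPKM in Control; -1.18 ± 0.19).

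Receptors for purines, lipids and formyl peptides moved in both directions. Of 13 tested purinergic receptors and ectonucleotidases 2 rose and 6 fell, and of 37 lipid, metabolite and peptide receptors 11 rose and 17 fell (medians -0.23 and -0.27). Adora2a (ENSMUSG00000020178), an adenosine receptor that raises cyclic AMP, stood at 16.2 and 14.9 FPKM with Pam3CSK4, against 0.105, 0.175 and 0.132 FPKM in Control (log2 change 6.78 ± 0.49, adjusted p = 1.05e-05). Control cells held almost none of it. The formyl peptide receptor genes Fpr1 and Fpr2, whose products detect N-formylated bacterial and mitochondrial peptides, stood at 202 and 229 FPKM with Pam3CSK4, against 11.9, 5.49 and 5.82 FPKM in Control for Fpr1 (log2 change 4.78 ± 0.37, adjusted p = 1.46e-05), and at 52.6 and 60.9 FPKM with Pam3CSK4, against 1.91, 1.35 and 0.803 FPKM in Control for Fpr2 (log2 change 5.36 ± 0.33, adjusted p = 4.28e-06). The lower treated library was 17.0-fold above the highest Control library for Fpr1 and 27.5-fold above it for Fpr2. The complement C3a receptor gene C3ar1 also rose (1.83 ± 0.20). In the other direction, S1pr1, the sphingosine 1-phosphate receptor that guides leukocyte exit into blood and lymph, stood at 8.59 and 7.46 FPKM with Pam3CSK4, against 92.3, 94.8 and 68.0 FPKM in Control (log2 change -3.44 ± 0.23, adjusted p = 6.83e-06). The ectonucleotidase gene Enpp1 fell by 2.11 on the log2 scale. P2rx4, the ATP-gated channel gene with the highest level in its list that did not pass, stood at 17.9 and 17.9 FPKM with Pam3CSK4, against 13.9, 15.3 and 10.5 FPKM in Control (adjusted p = 0.113), and the niacin and butyrate receptor gene Hcar2 at 105 and 81.6 FPKM with Pam3CSK4, against 64.2, 74.1 and 57.5 FPKM in Control (adjusted p = 0.0512).

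Chemokine receptors also moved both ways, with 3 of 8 higher and 3 lower. Ccr1, a receptor for CCL3 and CCL5, stood at 0.309 and 0.523 FPKM with Pam3CSK4, against 6.25, 5.85 and 14.9 FPKM in Control (log2 change -4.42 ± 0.50, adjusted p = 0.000132). Cxcr4, the CXCL12 receptor, stood at 7.13 and 7.89 FPKM with Pam3CSK4, against 41.9, 31.7 and 25.1 FPKM in Control (log2 change -2.16 ± 0.29, adjusted p = 0.000319). Both were lower in both treated libraries than in every Control library, as the naming rule required. Cx3cr1, the fractalkine receptor that marks microglia, stood at 313 and 294 FPKM with Pam3CSK4, against 301, 317 and 212 FPKM in Control, with the groups overlapping (adjusted p = 0.698).

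C-type lectins were the receptor list with the largest share of rises: 10 of 15 tested members rose and 2 fell (0 falls without Pam3CSK4 replicate 1), with a median log2 change of 1.87. Clec4a1, a member of the DCIR family of inhibitory lectins, stood at 81.7 and 116 FPKM with Pam3CSK4, against 0.811, 0.203 and 0.789 FPKM in Control (log2 change 7.35 ± 0.41, adjusted p = 2.26e-06). The related Clec4a3 stood at 16.2 and 15.7 FPKM with Pam3CSK4, against 1.31, 0.999 and 1.23 FPKM in Control (log2 change 3.74 ± 0.18, adjusted p = 1.21e-06). Cd69, an early activation antigen of leukocytes, stood at 23.5 and 18.0 FPKM with Pam3CSK4, against 0.272, 0.534 and 0.228 FPKM in Control (log2 change 5.88 ± 0.35, adjusted p = 3.49e-06). The lower treated library exceeded the highest Control library by 101-fold for Clec4a1, 11.9-fold for Clec4a3 and 33.8-fold for Cd69. The inhibitory receptor gene Clec12a, whose product binds uric acid crystals, rose by 3.02 ± 0.26. Clec7a, the beta-glucan receptor dectin-1, went against this list, at 113 and 106 FPKM with Pam3CSK4, against 166, 329.5 and 176 FPKM in Control, and did not pass the threshold (adjusted p = 0.0754, and 0.0401 without Control replicate 3, where its log2 change was -1.25).

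Scavenger, Fc and immunoglobulin-like receptors included genes that moved in both directions. Of 17 scavenger receptors 4 rose and 4 fell, 23.5% each, near the 20.0% and 21.4% over all genes tested. Marco, a receptor for bacteria and particles, stood at 2106 and 2447 FPKM with Pam3CSK4, against 3.11, 1.26 and 3.55 FPKM in Control (log2 change 9.75 ± 0.68, adjusted p = 8.6e-06). The oxidised lipoprotein receptor gene Olr1 also rose (1.49 ± 0.14), whereas Scarb1, the HDL receptor (3.14 and 3.87 FPKM with Pam3CSK4 and 16.9, 13.7 and 11.9 FPKM in Control; -2.04 ± 0.21), and Colec12 (20.3 and 20.3 FPKM with Pam3CSK4 and 86.9, 77.6 and 73.6 FPKM in Control; -1.99 ± 0.22) fell. Among 8 Fc receptors 6 fell and 1 rose, with a median log2 change of -1.10. The riser was Fcer1g, the signalling chain that activating Fc receptors share, at 1735 and 1637 FPKM with Pam3CSK4, against 689, 645 and 474 FPKM in Control (log2 change 1.45 ± 0.20, adjusted p = 0.00044). Fcgr3, an activating low-affinity receptor, stood at 2.08 and 1.73 FPKM with Pam3CSK4, against 174, 162 and 135 FPKM in Control (log2 change -6.39 ± 0.21, adjusted p = 1.13e-07). Fcgr4 and the neonatal receptor gene Fcgrt fell by 1.13 and 1.07 on the log2 scale, and the high-affinity receptor gene Fcgr1 did not pass (31.3 and 41.8 FPKM with Pam3CSK4 and 59.2, 54.1 and 42.6 FPKM in Control; adjusted p = 0.0628), except without Control replicate 3 (log2 change -0.70, adjusted p = 0.00507). Of 38 paired and inhibitory immunoglobulin-like receptors 16 rose and 17 fell. The inhibitory Siglec gene Siglece stood at 31.6 and 31.7 FPKM with Pam3CSK4, against 3.42, 2.89 and 2.92 FPKM in Control (log2 change 3.35 ± 0.16, adjusted p = 1.02e-06), which is the opposite direction to Siglecf. The activating receptor genes Cd300e (8.19 and 11.5 FPKM with Pam3CSK4 and 0.414, 0.424 and 0.669 FPKM in Control; 4.28 ± 0.25), Trem3 (6.93 and 8.55 FPKM with Pam3CSK4 and 0.468, 0.191 and 0.506 FPKM in Control; 4.29 ± 0.46) and Pilrb1 (8.36 and 10.4 FPKM with Pam3CSK4 and 1.15, 0.873 and 0.789 FPKM in Control; 3.30 ± 0.25) rose. How reads shared between near-identical genes were counted is not given in the sources used here, so levels within the Clec4a, Ms4a6, Fcgr, Fpr, Cd300, Pilrb, Siglec and Lyz families are uncertain.

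Receptors for growth factors and cytokines mostly fell: 25 of 47 tested members were lower and 5 higher (3 rises without Pam3CSK4 replicate 2), with a median log2 change of -0.74. Flt1, a VEGF receptor, stood at 1.48 and 1.47 FPKM with Pam3CSK4, against 15.7, 16.4 and 11.0 FPKM in Control (log2 change -3.32 ± 0.27, adjusted p = 1.78e-05). Il6st, the gp130 chain shared by the interleukin-6 family, stood at 0.708 and 0.918 FPKM with Pam3CSK4, against 5.39, 5.97 and 8.23 FPKM in Control (log2 change -3.01 ± 0.23, adjusted p = 1.46e-05). Mertk, a receptor through which phagocytes take up apoptotic cells, stood at 8.15 and 7.71 FPKM with Pam3CSK4, against 57.6, 63.6 and 48.2 FPKM in Control (log2 change -2.86 ± 0.17, adjusted p = 3.49e-06). The lowest Control library exceeded the higher treated library by 7.45-fold for Flt1, 5.87-fold for Il6st and 5.91-fold for Mertk. Csf1r itself stood at 157 and 160.1 FPKM with Pam3CSK4, against 549.6, 513 and 377 FPKM in Control (log2 change -1.63 ± 0.20, adjusted p = 0.000209), and Il13ra1, a chain of the interleukin-13 receptor, fell by 2.20 on the log2 scale. The TGF-beta receptor genes passed in the full comparison but not in every reduced one. Tgfbr1 stood at 21.2 and 14.9 FPKM with Pam3CSK4, against 82.4, 92.6 and 33.5 FPKM in Control (log2 change -2.00 ± 0.43, adjusted p = 0.00522) and Tgfbr2 at 90.0 and 82.8 FPKM with Pam3CSK4, against 147, 159 and 117 FPKM in Control (log2 change -0.74 ± 0.16, adjusted p = 0.00617), and both lost the call without Pam3CSK4 replicate 2. The GM-CSF receptor gene Csf2ra did not pass (247 and 278 FPKM with Pam3CSK4 and 256, 235 and 169 FPKM in Control, overlapping; adjusted p = 0.394).

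The TNF receptor superfamily had 3 rises and 3 falls among 14 members (5 rises without Control replicate 3). These shares, 21.4% each, were near the 20.0% and 21.4% over all genes tested. The 2 main TNF receptors moved apart. Tnfrsf1b, which encodes TNFR2, stood at 459.8 and 479 FPKM with Pam3CSK4, against 88.0, 79.4 and 73.5 FPKM in Control (log2 change 2.53 ± 0.13, adjusted p = 1.55e-06). Tnfrsf1a, which encodes TNFR1, stood at 26.1 and 32.4 FPKM with Pam3CSK4, against 45.2, 43.7 and 43.3 FPKM in Control (log2 change -0.61 ± 0.12, adjusted p = 0.00309). Neither gene's groups overlapped, as the naming rule required. The death receptor gene Fas rose by 2.81 ± 0.25, and Ltbr, the lymphotoxin receptor gene, did not pass (adjusted p = 0.682).

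Adhesion and guidance receptor genes moved in both directions within families. Of 15 integrin genes 5 rose and 5 fell. Itgal, the alpha chain of LFA-1, stood at 237 and 198 FPKM with Pam3CSK4, against 30.9, 25.3 and 22.7 FPKM in Control (log2 change 3.02 ± 0.20, adjusted p = 6.19e-06), and Itga5, the fibronectin receptor alpha chain, at 410.5 and 391 FPKM with Pam3CSK4, against 48.1, 40.9 and 124 FPKM in Control (log2 change 2.52 ± 0.34, adjusted p = 0.000368). Itgax, the CD11c chain, stood at 36.7 and 30.0 FPKM with Pam3CSK4, against 192, 269 and 159 FPKM in Control (log2 change -2.67 ± 0.33, adjusted p = 0.000208), and Itgb3 fell by 2.29 on the log2 scale. The shared beta chain gene Itgb2 overlapped between the groups (452 and 426 FPKM with Pam3CSK4 and 540.3, 599 and 413 FPKM in Control; adjusted p = 0.286), and was lower without Control replicate 3 (log2 change -0.45, adjusted p = 0.00516). Among 25 tetraspanins and Ms4a genes 9 rose and 9 fell. The membrane-spanning genes Ms4a6d (661 and 595 FPKM with Pam3CSK4 and 34.2, 29.3 and 31.3 FPKM in Control; 4.29 ± 0.17) and Ms4a6c (335 and 302 FPKM with Pam3CSK4 and 17.1, 11.8 and 13.5 FPKM in Control; 4.47 ± 0.17) rose, whereas the tetraspanin gene Tspan13 fell (0.854 and 0.617 FPKM with Pam3CSK4 and 6.35, 9.11 and 6.11 FPKM in Control; -3.31 ± 0.35). In the 19 semaphorin, plexin, neuropilin and ephrin genes 5 rose and 6 fell (26.3% and 31.6%, against 20.0% and 21.4% over all genes tested). Plxnd1, a semaphorin receptor, stood at 68.1 and 58.4 FPKM with Pam3CSK4, against 5.86, 4.73 and 5.21 FPKM in Control (log2 change 3.57 ± 0.22, adjusted p = 4.19e-06) and Sema4a at 35.9 and 43.2 FPKM with Pam3CSK4, against 2.78, 1.08 and 1.71 FPKM in Control (log2 change 4.40 ± 0.33, adjusted p = 1.21e-05), while Nrp1, the neuropilin that binds semaphorins and VEGF, stood at 6.38 and 5.75 FPKM with Pam3CSK4, against 37.5, 42.2 and 39.0 FPKM in Control (log2 change -2.72 ± 0.17, adjusted p = 5.56e-06).

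**Figure D2:**
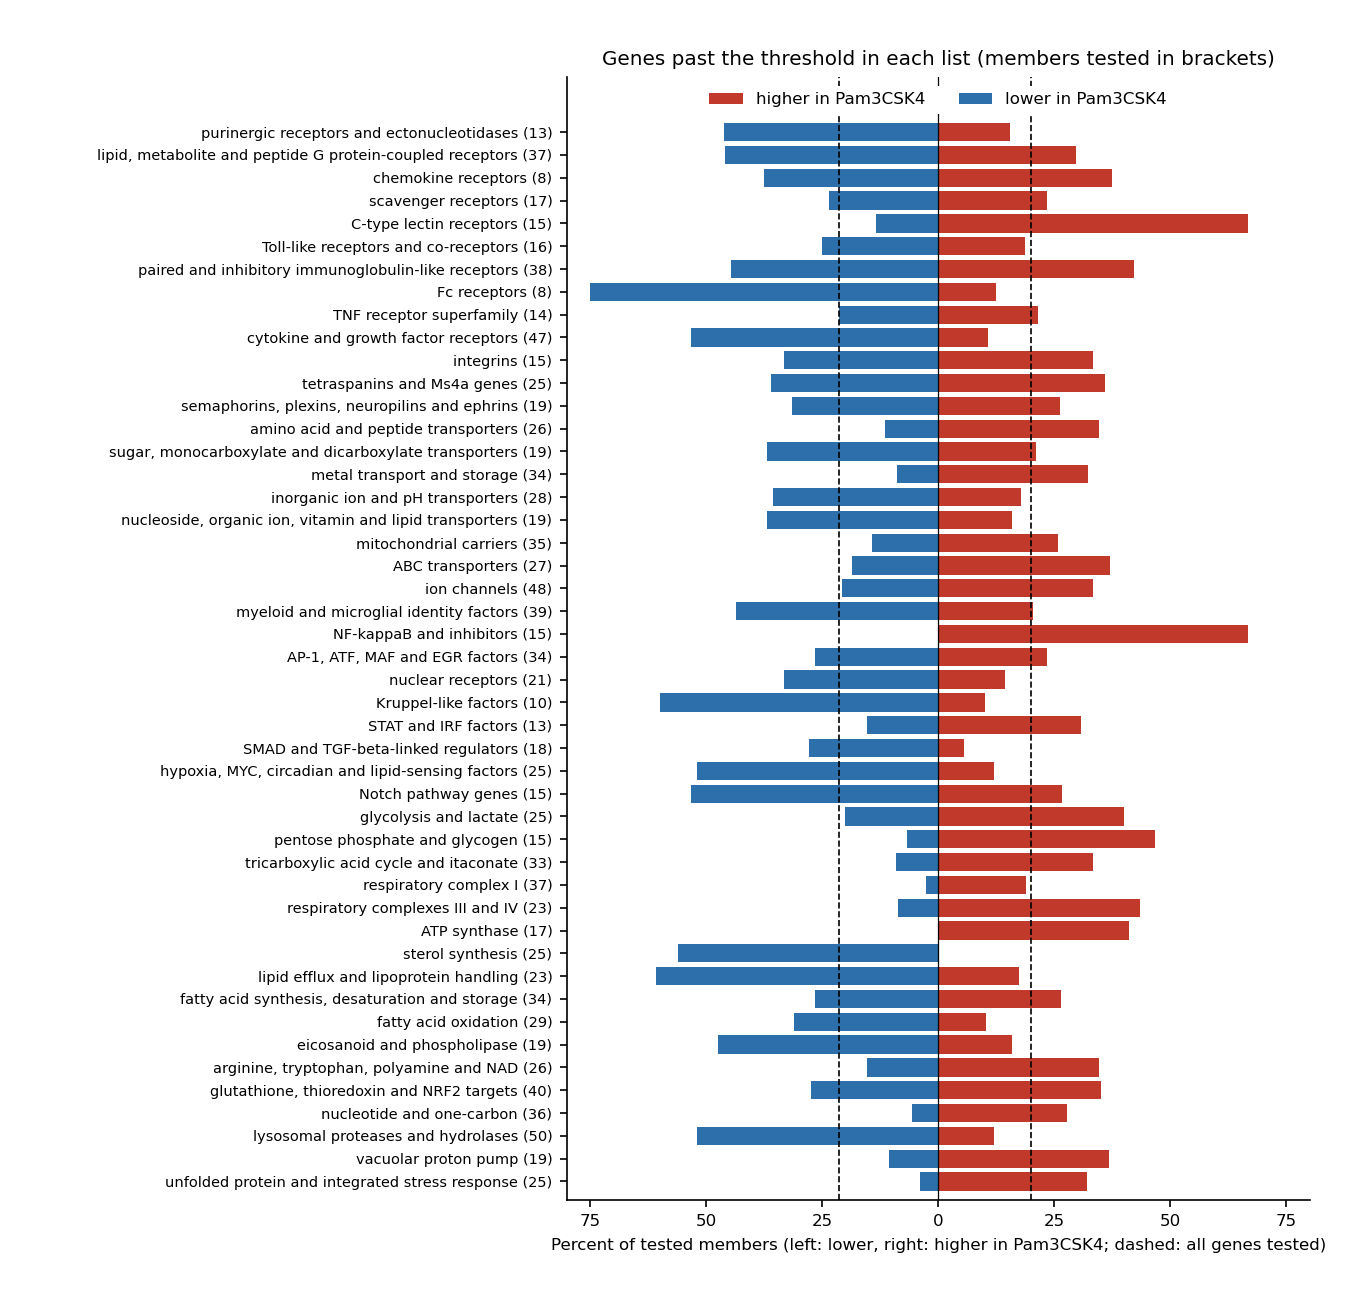
Share of the tested members of each receptor, transporter and channel, transcription factor and metabolism list that passed the threshold, in percent. Bars run to the right in red where higher in Pam3CSK4 and to the left in blue where lower. The number tested is in brackets, and dashed lines mark the shares of all genes tested, 20.0 and 21.4%. Lists of secreted proteins, interferon-stimulated genes and cell type markers are not drawn. Among the lists drawn, C-type lectins and NF-kappaB genes had the longest red bars, and Fc receptors, lipid efflux, Kruppel-like factors and sterol synthesis the longest blue bars.

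Transporters for amino acids, metals and substrates of ABC pumps rose more often than they fell. Of 26 amino acid and peptide transporters 9 rose and 3 fell. Slc6a12, the betaine and GABA transporter, stood at 9.74 and 16.9 FPKM with Pam3CSK4, against 0.121, 0 and 0.114 FPKM in Control (log2 change 7.37 ± 0.71, adjusted p = 4.79e-05). Slc7a11, the cystine and glutamate exchanger that feeds glutathione synthesis, stood at 40.9 and 37.4 FPKM with Pam3CSK4, against 6.32, 6.83 and 8.94 FPKM in Control (log2 change 2.40 ± 0.13, adjusted p = 1.76e-06). Slc15a3, a lysosomal transporter of histidine and bacterial peptides, stood at 236 and 214 FPKM with Pam3CSK4, against 57.2, 57.2 and 43.9 FPKM in Control (log2 change 2.07 ± 0.20, adjusted p = 5.19e-05). The treated libraries were above every Control library in all 3, as the naming rule required. Slc3a2, the heavy chain with which Slc7a11 pairs, did not pass (70.5 and 79.3 FPKM with Pam3CSK4 and 62.4, 59.8 and 53.7 FPKM in Control; adjusted p = 0.0891). Creatine transporter gene Slc6a8 rose by 0.99 ± 0.14.

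Metal handling had 11 rises and 3 falls among 34 genes (1 fall without Pam3CSK4 replicate 2). Lcn2, which encodes the iron-siderophore-binding protein lipocalin 2, stood at 57.0 and 83.8 FPKM with Pam3CSK4, against 0.232, 0.364 and 0.998 FPKM in Control (log2 change 7.05 ± 0.63, adjusted p = 3.25e-05, and 7.80 without Control replicate 3). Hmox1, the heme oxygenase that frees iron from heme, stood at 2486 and 2835 FPKM with Pam3CSK4, against 914, 695 and 575 FPKM in Control (log2 change 1.84 ± 0.23, adjusted p = 0.000213). The iron importer gene Slc11a2 (31.7 and 32.6 FPKM with Pam3CSK4 and 9.31, 10.7 and 10.0 FPKM in Control; 1.66 ± 0.14) and Slc31a2, a copper transporter related to CTR1 (121 and 113 FPKM with Pam3CSK4 and 23.2, 23.7 and 16.7 FPKM in Control; 2.43 ± 0.18), rose, and Hfe, a regulator of iron uptake, fell (3.69 and 3.50 FPKM with Pam3CSK4 and 12.0, 11.2 and 10.0 FPKM in Control; -1.65 ± 0.21). The ferritin light chain gene Ftl1 was abundant and overlapped between the groups (3107 and 4285 FPKM with Pam3CSK4 and 3647, 2855 and 2271 FPKM in Control; adjusted p = 0.337).

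Sugar, monocarboxylate and dicarboxylate transporters had 4 rises and 7 falls among 19 (4 falls without Pam3CSK4 replicate 2). Slc13a3, a sodium-coupled carrier of dicarboxylates such as succinate and itaconate, stood at 227 and 115 FPKM with Pam3CSK4, against 0.104, 0.0496 and 0.227 FPKM in Control (log2 change 10.37 ± 0.55, adjusted p = 1.69e-06, and 11.04 without Control replicate 3). The next largest named rise was in the aromatic amino acid transporter gene Slc16a10 (1.34 ± 0.17), and the lactate exporter gene Slc16a3 rose by 0.70 ± 0.10. The glucose transporter gene Slc2a1 stood at 52.3 and 57.0 FPKM with Pam3CSK4, against 36.2, 31.2 and 53.2 FPKM in Control, with Control replicate 3 inside the range of the treated libraries. It passed the threshold narrowly (log2 change 0.45 ± 0.15, adjusted p = 0.0349) and lost the call when any 1 of 8 of the 11 libraries was left out, among them Control replicates 1 and 2 and both Pam3CSK4 libraries. Of 19 nucleoside, organic ion, vitamin and lipid transporters 3 rose and 7 fell (1 rise without Pam3CSK4 replicate 2): besides Slco2b1, the lysosomal transporter gene Slc46a3 stood at 0.653 and 0.523 FPKM with Pam3CSK4, against 8.07, 7.71 and 4.60 FPKM in Control (log2 change -3.56 ± 0.38, adjusted p = 8.41e-05). Inorganic ion and pH transporters had 5 rises and 10 falls among 28 (1 rise without Pam3CSK4 replicate 2, 6 falls without Pam3CSK4 replicate 1 and 4 falls without Pam3CSK4 replicate 2), and the largest named fall was in the endosomal sodium/proton exchanger gene Slc9a9 (2.30 and 2.64 FPKM with Pam3CSK4 and 12.9, 13.3 and 8.71 FPKM in Control; -2.27 ± 0.27).

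Mitochondrial carriers, pumps and channels were changed gene by gene. Of 35 mitochondrial carriers 9 rose and 5 fell (25.7% and 14.3%, against 20.0% and 21.4% over all genes tested). Slc25a10, the dicarboxylate carrier that exchanges malate and succinate for phosphate, stood at 69.0 and 79.4 FPKM with Pam3CSK4, against 12.3, 10.6 and 8.86 FPKM in Control (log2 change 2.78 ± 0.19, adjusted p = 6.6e-06). Ucp2, an uncoupling protein family carrier, stood at 98.6 and 114 FPKM with Pam3CSK4, against 551, 523 and 370.1 FPKM in Control (log2 change -2.21 ± 0.22, adjusted p = 6.22e-05), and the pyruvate carrier subunit gene Mpc1 fell (5.09 and 5.75 FPKM with Pam3CSK4 and 18.0, 17.3 and 12.7 FPKM in Control; -1.59 ± 0.29). The ADP/ATP carrier gene Slc25a5 did not pass (119 and 117 FPKM with Pam3CSK4 and 94.2, 105 and 100.2 FPKM in Control; adjusted p = 0.112). Among 27 ABC transporters 10 rose and 5 fell (2 falls without Pam3CSK4 replicate 1 and 3 falls without Pam3CSK4 replicate 2). Abcb4, a phosphatidylcholine translocator known from liver bile canaliculi, stood at 9.73 and 11.0 FPKM with Pam3CSK4, against 1.06, 0.845 and 0.79 FPKM in Control (log2 change 3.50 ± 0.25, adjusted p = 1.03e-05), Abcc4, an exporter of cyclic nucleotides and prostanoids, rose by 1.93 ± 0.19, and the peroxisomal fatty acid transporter gene Abcd2 fell by 1.73 on the log2 scale.

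Ion channel genes had 16 rises and 10 falls among 48 (6 falls without Pam3CSK4 replicate 1 and 4 falls without Pam3CSK4 replicate 2). In the full comparison the shares were 33.3% and 20.8%, against 20.0% and 21.4% over all genes tested. Kcna3, the voltage-gated potassium channel Kv1.3, stood at 20.7 and 12.2 FPKM with Pam3CSK4, against 1.26, 1.46 and 1.67 FPKM in Control (log2 change 3.47 ± 0.31, adjusted p = 3.47e-05). Kcne3, a beta subunit of potassium channels, stood at 15.4 and 6.83 FPKM with Pam3CSK4, against 0.103, 0.131 and 0.52 FPKM in Control (log2 change 5.42 ± 0.71, adjusted p = 0.00029, with 6.45 without Control replicate 3 and 4.74 without Pam3CSK4 replicate 1). Piezo1, a mechanically gated cation channel, stood at 51.6 and 52.7 FPKM with Pam3CSK4, against 8.43, 6.87 and 14.4 FPKM in Control (log2 change 2.41 ± 0.20, adjusted p = 2.36e-05). Trpm4, a calcium-activated cation channel gene, rose by 1.55 ± 0.066. The inward rectifier gene Kcnj2, the Kir2.1 channel of resting microglia, stood at 19.1 and 17.2 FPKM with Pam3CSK4, against 45.7, 57.2 and 32.1 FPKM in Control (log2 change -1.35 ± 0.28, adjusted p = 0.00405). The named potassium channel genes thus moved in both directions, and the naming rule required that their groups did not overlap. The proton channel gene Hvcn1 overlapped (81.2 and 82.6 FPKM with Pam3CSK4 and 90.5, 97.8 and 71.0 FPKM in Control; adjusted p = 0.69).

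Among transcription factors, NF-kappaB genes rose and the factors of microglial and myeloid identity fell more often than they rose. Of 15 tested NF-kappaB subunits and inhibitors 10 rose and 0 fell, with a median log2 change of 1.04. Nfkbiz, the inducible co-activator IkappaB-zeta, stood at 96.4 and 84.7 FPKM with Pam3CSK4, against 5.77, 7.29 and 11.2 FPKM in Control (log2 change 3.49 ± 0.24, adjusted p = 8.61e-06). The inhibitor genes Nfkbia (279 and 295 FPKM with Pam3CSK4 and 62.8, 44.0 and 57.3 FPKM in Control; 2.38 ± 0.17) and Nfkbib (1.66 ± 0.15), the atypical inhibitor gene Bcl3 (19.7 and 22.2 FPKM with Pam3CSK4 and 3.70, 2.63 and 5.78 FPKM in Control; 2.38 ± 0.22) and Tnip1 (1.80 ± 0.16), a partner of A20, also rose. All 5 genes encode regulators and not DNA-binding subunits. Rela, the p65 subunit gene, stood at 40.0 and 41.3 FPKM with Pam3CSK4, against 43.2, 37.9 and 39.6 FPKM in Control, overlapping (adjusted p = 0.993).

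Of 39 identity factors 8 rose and 17 fell, with a median log2 change of -0.47. Sall1, a factor that defines microglia among macrophages, stood at 35.8 and 32.6 FPKM with Pam3CSK4, against 86.8, 93.1 and 60.0 FPKM in Control (log2 change -1.26 ± 0.21, adjusted p = 0.0013). Id1, a target of BMP and TGF-beta signalling, stood at 3.42 and 3.93 FPKM with Pam3CSK4, against 20.2, 12.0 and 20.1 FPKM in Control (log2 change -2.25 ± 0.29, adjusted p = 0.000284). All Control libraries were above both treated libraries in these genes, which the naming rule required of Id1 but not of the panel gene Sall1. The circadian and activation-linked repressor gene Bhlhe40 fell by 1.69 on the log2 scale. Spi1, which encodes PU.1, did not pass (100.4 and 122 FPKM with Pam3CSK4 and 96.3, 85.0 and 61.3 FPKM in Control; adjusted p = 0.133), and nor did Id2 (163 and 155 FPKM with Pam3CSK4 and 203, 186 and 140.1 FPKM in Control, overlapping; adjusted p = 0.447), although Id2 passed as lower without Control replicate 3 (log2 change -0.36, adjusted p = 0.00796). Pou2f2, an octamer-binding factor first known from B cells, rose by 1.82 ± 0.24.

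AP-1, ATF, MAF and EGR factors had 8 rises and 9 falls among 34, and fewer falls passed without Pam3CSK4 replicate 1. These shares, 23.5% and 26.5%, were near the 20.0% and 21.4% over all genes tested. Batf, an AP-1 factor without an activation domain, stood at 61.0 and 59.0 FPKM with Pam3CSK4, against 3.90, 2.91 and 2.51 FPKM in Control (log2 change 4.25 ± 0.24, adjusted p = 2.39e-06). Egr2 stood at 0.705 and 0.902 FPKM with Pam3CSK4, against 16.5, 20.6 and 13.1 FPKM in Control (log2 change -4.41 ± 0.29, adjusted p = 6.6e-06) and Egr1 fell by 2.35 on the log2 scale; both encode immediate early zinc finger factors. The small MAF gene Maff (1.55 ± 0.11) and the repressor gene Jdp2 (1.77 ± 0.16) rose, and the stress response factor gene Atf4 overlapped between the groups (117 and 115 FPKM with Pam3CSK4 and 111, 107 and 149 FPKM in Control; adjusted p = 0.581). Of 21 nuclear receptors 3 rose and 7 fell (5 rises without Control replicate 3 and 4 falls without Pam3CSK4 replicate 1). Nr1h3, the oxysterol receptor LXR-alpha, stood at 5.20 and 6.37 FPKM with Pam3CSK4, against 0.744, 0.366 and 0.55 FPKM in Control (log2 change 3.37 ± 0.27, adjusted p = 1.69e-05), whereas its partner gene Rxra did not pass (18.3 and 17.1 FPKM with Pam3CSK4 and 23.9, 18.9 and 18.4 FPKM in Control; adjusted p = 0.32).

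Kruppel-like factors had 6 falls and 1 rise among 10 (3 falls without either Pam3CSK4 library), including Klf10, a TGF-beta-inducible gene (6.61 and 7.86 FPKM with Pam3CSK4 and 13.3, 12.0 and 24.7 FPKM in Control; -1.19 ± 0.25), and Klf6 (-0.65 ± 0.09). In the TGF-beta pathway, 5 of 18 regulators fell and 1 rose (8 falls without Control replicate 3 and 3 falls without Pam3CSK4 replicate 2). Smad7, the inhibitory SMAD that TGF-beta induces, stood at 4.39 and 4.77 FPKM with Pam3CSK4, against 11.8, 12.0 and 10.5 FPKM in Control (log2 change -1.34 ± 0.14, adjusted p = 6.83e-05). Tgfbi, a matrix protein gene named for its induction by TGF-beta, went the other way, at 732 and 748 FPKM with Pam3CSK4, against 69.5, 70.0 and 93.0 FPKM in Control (log2 change 3.25 ± 0.10, adjusted p = 1.02e-07). Both groups were grown with the same TGF-beta1 dose.

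Hypoxia, MYC, circadian and lipid-sensing factors mostly fell, with 13 of 25 lower and 3 higher. Mlxipl, the carbohydrate-responsive factor ChREBP, stood at 1.43 and 1.60 FPKM with Pam3CSK4, against 22.4, 23.6 and 15.1 FPKM in Control (log2 change -3.78 ± 0.28, adjusted p = 1.13e-05). Hif1a, the oxygen-sensitive factor that drives glycolytic genes when stabilised as a protein, stood at 51.6 and 44.7 FPKM with Pam3CSK4, against 84.9, 109.9 and 103 FPKM in Control (log2 change -1.06 ± 0.15, adjusted p = 0.000555). The MAX partner gene Mxd4 fell by 2.30 and the glucose-responsive gene Txnip by 1.00 on the log2 scale. The clock repressor gene Cry1 rose by 1.14 ± 0.099. Of 15 Notch pathway genes 4 rose and 8 fell (4 falls without Pam3CSK4 replicate 1 and 5 falls without Pam3CSK4 replicate 2). The effector gene Hes1 stood at 0.229 and 0.293 FPKM with Pam3CSK4, against 5.44, 3.82 and 9.45 FPKM in Control (log2 change -4.56 ± 0.57, adjusted p = 0.000234), while Rbpj, the DNA-binding factor of the pathway, stood at 24.5 and 20.6 FPKM with Pam3CSK4, against 4.36, 3.84 and 7.23 FPKM in Control (log2 change 2.14 ± 0.19, adjusted p = 3.03e-05) and the ligand gene Jag1 rose by 1.15 ± 0.11. The pathway's transcription factor and its target thus moved in opposite directions.

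**Figure D3:**
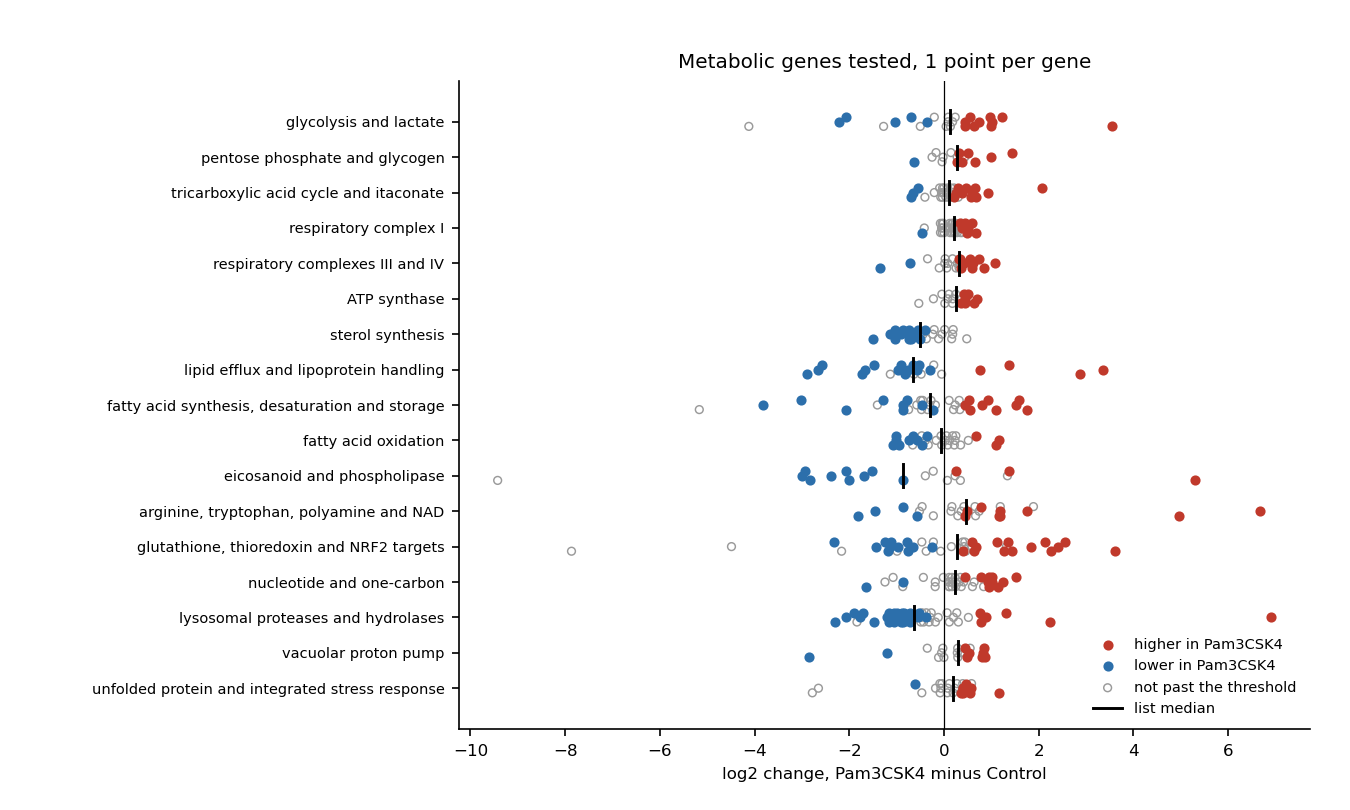
log2 change (Pam3CSK4 minus Control) of every tested gene in 17 metabolic lists, 1 point per gene, red where higher, blue where lower and open where not past the threshold, with the median of each list as a black bar. Points of the respiratory complexes lie close together just right of 0, sterol synthesis lies left of it, and the eicosanoid, arginine and lysosomal lists hold a few genes far to the right.

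Genes of central carbon metabolism changed modestly and unevenly. Of 25 glycolysis and lactate genes 10 rose and 5 fell (3 falls without Control replicate 2, Pam3CSK4 replicate 1 or Pam3CSK4 replicate 2), with a median log2 change of 0.14. Phosphoglycerate kinase gene Pgk1 stood at 339 and 354 FPKM with Pam3CSK4, against 149, 149.8 and 216 FPKM in Control (log2 change 1.01 ± 0.12, adjusted p = 0.000134) and the phosphoglycerate mutase gene Pgam1 at 492 and 547 FPKM with Pam3CSK4, against 252, 234 and 294 FPKM in Control (log2 change 0.99 ± 0.093, adjusted p = 4.23e-05). Ldhb, the lactate dehydrogenase chain that favours pyruvate formation, stood at 35.0 and 35.2 FPKM with Pam3CSK4, against 162, 167 and 100.0 FPKM in Control (log2 change -2.06 ± 0.25, adjusted p = 0.000187). Each rise was about 2-fold, smaller than the fall of Ldhb. Hexokinase 3 gene Hk3 rose (1.23 ± 0.17), Pfkfb4, which makes an activator of phosphofructokinase, fell (-1.03 ± 0.20), and the enolase gene Eno1 overlapped (71.3 and 83.3 FPKM with Pam3CSK4 and 70.4, 62.5 and 84.0 FPKM in Control; adjusted p = 0.536). Of 15 pentose phosphate and glycogen genes 7 rose and 1 fell (4 rises without either Pam3CSK4 library), and of 33 tricarboxylic acid cycle genes 11 rose and 3 fell (1 fall without either Pam3CSK4 library). Pyruvate carboxylase gene Pcx, which refills the cycle with oxaloacetate, stood at 9.43 and 9.66 FPKM with Pam3CSK4, against 2.18, 2.59 and 1.91 FPKM in Control (log2 change 2.07 ± 0.16, adjusted p = 1.21e-05). Mdh2, the mitochondrial malate dehydrogenase (0.68 ± 0.096), and Ogdh, a subunit of the oxoglutarate dehydrogenase complex (0.65 ± 0.099), rose less.

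Among oxidative phosphorylation genes rises outnumbered falls, although for complex I the share of rises was below the 20.0% over all genes. Of 37 complex I genes 7 rose and 1 fell (4 rises without Control replicate 3, 2 rises without Pam3CSK4 replicate 1 and 3 rises without Pam3CSK4 replicate 2). Of 23 complex III and IV genes 10 rose and 2 fell (6 rises without Pam3CSK4 replicate 2). Of 17 ATP synthase genes 7 rose and 0 fell (4 rises without Pam3CSK4 replicate 1 and 1 rise without Pam3CSK4 replicate 2). Medians were 0.21, 0.32 and 0.25, against -0.043 over all genes tested. The largest rise among them was in Cox5a, a subunit of complex IV, at 213 and 203 FPKM with Pam3CSK4, against 101, 89.9 and 102 FPKM in Control (log2 change 1.08 ± 0.11, adjusted p = 6.22e-05). Cox6a2, a subunit known from heart and muscle, fell (2.57 and 2.74 FPKM with Pam3CSK4 and 5.67, 8.46 and 5.75 FPKM in Control; -1.34 ± 0.30). Atp5f1, a stalk subunit of ATP synthase, stood at 29.2 and 26.8 FPKM with Pam3CSK4, against 17.8, 20.6 and 22.7 FPKM in Control (log2 change 0.45 ± 0.085, adjusted p = 0.00256). All other named members of these lists that passed changed by under 2-fold.

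Lipid genes fell in 3 of 4 lists more often than they rose. Of 25 sterol synthesis genes 14 fell and 0 rose (9 falls without Pam3CSK4 replicate 1), with a median log2 change of -0.51. Hmgcs1, which makes the HMG-CoA from which mevalonate is formed, stood at 15.4 and 11.8 FPKM with Pam3CSK4, against 35.1, 39.9 and 38.2 FPKM in Control (log2 change -1.49 ± 0.14, adjusted p = 4.34e-05). The lanosterol demethylase gene Cyp51 (7.67 and 8.08 FPKM with Pam3CSK4 and 17.4, 17.2 and 16.6 FPKM in Control; -1.13 ± 0.10) and the squalene epoxidase gene Sqle (2.46 and 2.71 FPKM with Pam3CSK4 and 5.35, 4.55 and 5.94 FPKM in Control; -1.04 ± 0.16) fell as well. Of 23 lipid efflux and lipoprotein genes 4 rose and 14 fell (8 falls without Pam3CSK4 replicate 1 and 6 falls without Pam3CSK4 replicate 2). Ch25h, which makes the antiviral oxysterol 25-hydroxycholesterol, stood at 899 and 1063 FPKM with Pam3CSK4, against 142, 150.2 and 103 FPKM in Control (log2 change 2.87 ± 0.22, adjusted p = 1.33e-05). The sorting receptor gene Sort1 fell by 1.73 on the log2 scale, and the cholesterol exporter gene Abcg1, an LXR target, rose by 1.38 ± 0.19. Fatty acid synthesis and storage genes split evenly, with 9 rises and 9 falls among 34 (26.5% each, against 20.0% and 21.4% over all genes tested). Acsl5, an acyl-CoA synthetase, stood at 168 and 165 FPKM with Pam3CSK4, against 61.7, 56.9 and 44.7 FPKM in Control (log2 change 1.59 ± 0.16, adjusted p = 6.91e-05), and the brain fatty acid-binding protein gene Fabp7 at 0.398 and 0.554 FPKM with Pam3CSK4, against 11.0, 5.52 and 3.11 FPKM in Control (log2 change -3.82 ± 0.60, adjusted p = 0.000922, and -3.19 without Control replicate 1). Of 29 fatty acid oxidation genes 3 rose and 9 fell (5 rises without Control replicate 1 or Control replicate 3).

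Eicosanoid genes included Ptgs2, the named gene that moved most when Control replicate 3 was left out. Of 19 eicosanoid and phospholipase genes 3 rose and 9 fell (5 rises without Control replicate 3). Ptges, the inducible prostaglandin E synthase, stood at 109 and 140.0 FPKM with Pam3CSK4, against 1.25, 1.60 and 6.93 FPKM in Control (log2 change 5.30 ± 0.67, adjusted p = 0.000237, and 6.38 without Control replicate 3). Hpgd, which degrades prostaglandins, stood at 29.3 and 33.1 FPKM with Pam3CSK4, against 311, 269 and 148 FPKM in Control (log2 change -3.00 ± 0.44, adjusted p = 0.000619). Alox5ap, the 5-lipoxygenase activating protein (6.13 and 6.85 FPKM with Pam3CSK4 and 55.4, 46.2 and 34.5 FPKM in Control; -2.84 ± 0.26), Ltc4s, the leukotriene C4 synthase (4.38 and 6.12 FPKM with Pam3CSK4 and 53.0, 38.2 and 25.8 FPKM in Control; -2.93 ± 0.38), and Ptgs1, the constitutive cyclooxygenase (-2.39 ± 0.24), fell. Ptgs2, the inducible cyclooxygenase, stood at 128 and 98.6 FPKM with Pam3CSK4, against 0.241, 0.135 and 144 FPKM in Control. Control replicate 3 was above both treated libraries, and the other 2 Control libraries were near 0. Its log2 change was 1.34 ± 1.81 (adjusted p = 0.579) with all 3 Control libraries and 9.16 (adjusted p = 1.09e-06) without Control replicate 3.

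Lists of nitrogen, redox and nucleotide metabolism had more rises than falls. Of 26 arginine, tryptophan, polyamine and NAD genes 9 rose and 4 fell (2 falls without Pam3CSK4 replicate 2). Cd38, an ectoenzyme that consumes NAD, stood at 9.11 and 10.0 FPKM with Pam3CSK4, against 0, 0.0609 and 0.202 FPKM in Control (log2 change 6.68 ± 0.54, adjusted p = 1.83e-05, and 8.11 without Control replicate 3). Nos2, the inducible nitric oxide synthase, stood at 44.1 and 54.6 FPKM with Pam3CSK4, against 0.0635, 0.211 and 4.68 FPKM in Control (log2 change 4.97 ± 1.14, adjusted p = 0.00688, and 8.39 without Control replicate 3). Gch1, which starts the synthesis of the nitric oxide synthase cofactor tetrahydrobiopterin, rose by 1.19 ± 0.14, and Naprt, an enzyme of NAD synthesis from nicotinic acid, fell (1.97 and 1.12 FPKM with Pam3CSK4 and 5.49, 4.88 and 5.91 FPKM in Control; -1.82 ± 0.24). Of 40 glutathione, thioredoxin and NRF2 target genes 14 rose and 11 fell (7 falls without Pam3CSK4 replicate 1). Prdx5, a peroxiredoxin of mitochondria, peroxisomes and cytosol, stood at 332 and 383 FPKM with Pam3CSK4, against 84.2, 68.2 and 66.2 FPKM in Control (log2 change 2.27 ± 0.17, adjusted p = 1.21e-05), Gstm1, a glutathione transferase, at 52.3 and 69.1 FPKM with Pam3CSK4, against 12.7, 9.68 and 8.00 FPKM in Control (log2 change 2.56 ± 0.26, adjusted p = 6.81e-05), and the secreted peroxidase gene Gpx3 fell by 2.33 on the log2 scale. Nucleotide and one-carbon genes had 10 rises and 2 falls among 36 (21 rises without Control replicate 3). With that library the shares were 27.8% and 5.56%, against 20.0% and 21.4% over all genes tested. Xdh, which makes uric acid, stood at 37.5 and 40.3 FPKM with Pam3CSK4, against 14.1, 10.5 and 16.1 FPKM in Control (log2 change 1.51 ± 0.21, adjusted p = 0.000419). Psat1, an enzyme of serine synthesis, stood at 23.4 and 24.7 FPKM with Pam3CSK4, against 74.3, 76.5 and 71.1 FPKM in Control (log2 change -1.64 ± 0.17, adjusted p = 6.83e-05). The cell cycle markers had 6 rises and 0 falls among 13, and 10 rises and 0 falls without Control replicate 3.

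The lysosome was the largest list in which falls prevailed. Of 50 lysosomal proteases and hydrolases 26 fell and 6 rose, with a median log2 change of -0.63. Ctsd, the aspartic protease cathepsin D, stood at 4532 and 4356 FPKM with Pam3CSK4, against 17387, 19117 and 11953 FPKM in Control (log2 change -1.90 ± 0.24, adjusted p = 0.000269), and Ctse, cathepsin E, at 2.01 and 2.16 FPKM with Pam3CSK4, against 11.0, 11.7 and 7.29 FPKM in Control (log2 change -2.29 ± 0.23, adjusted p = 6.91e-05). Acp5, the tartrate-resistant acid phosphatase known as a marker of osteoclasts, ran against the list at 268 and 334 FPKM with Pam3CSK4, against 2.93, 1.96 and 2.56 FPKM in Control (log2 change 6.91 ± 0.21, adjusted p = 1.02e-07). Ctsz, an abundant cathepsin gene, overlapped (2031 and 2054 FPKM with Pam3CSK4 and 1841, 2079.6 and 1279 FPKM in Control; adjusted p = 0.505). Of 19 genes of the proton pump that acidifies lysosomes 7 rose and 2 fell (5 falls without Control replicate 3). Atp6v0d2, a membrane subunit also known from osteoclasts, stood at 1.81 and 2.02 FPKM with Pam3CSK4, against 11.9, 17.9 and 10.6 FPKM in Control (log2 change -2.84 ± 0.31, adjusted p = 9.54e-05), while the catalytic subunit gene Atp6v1a rose by 0.87 ± 0.13. Of 25 genes of the unfolded protein and integrated stress responses 8 rose and 1 fell (5 rises without Control replicate 1, 13 rises without Control replicate 3 and 4 rises without Pam3CSK4 replicate 2). The chaperone gene Hspa5 stood at 207 and 204 FPKM with Pam3CSK4, against 119, 129.6 and 169 FPKM in Control (log2 change 0.55 ± 0.10, adjusted p = 0.00221).

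Secreted proteins outside the cytokine family also changed. Of 26 growth and trophic factors 3 rose and 11 fell (6 falls without Pam3CSK4 replicate 1 and 7 falls without Pam3CSK4 replicate 2), and the median log2 change of -1.72 was -0.43 without Control replicate 3. Gdf15, a stress-induced TGF-beta family hormone, stood at 20.7 and 13.6 FPKM with Pam3CSK4, against 0, 0.151 and 0.286 FPKM in Control (log2 change 6.81 ± 0.69, adjusted p = 6.52e-05, and 7.68 without Control replicate 3). Tgfa, an EGF receptor ligand, stood at 0.307 and 0.229 FPKM with Pam3CSK4, against 6.15, 6.79 and 4.10 FPKM in Control (log2 change -4.43 ± 0.32, adjusted p = 1.04e-05). Among 27 metalloproteinases, ADAM proteases and inhibitors 7 rose and 4 fell (11 rises without Control replicate 3 and 3 rises without Pam3CSK4 replicate 2), and the median log2 change of -0.15 was 1.29 without Control replicate 3. The mural and fibroblast markers were high in that same library, and their part in these medians was not tested. Plau, the urokinase gene, stood at 18.7 and 18.9 FPKM with Pam3CSK4, against 180.2, 187 and 136 FPKM in Control (log2 change -3.18 ± 0.19, adjusted p = 3.88e-06). Of 17 complement genes 4 rose and 3 fell (5 falls without Control replicate 3), and the median log2 change of -0.047 was 1.12 without Control replicate 3. These shares, 23.5% and 17.6%, were near the 20.0% and 21.4% over all genes tested. C3, the central component, stood at 282 and 304 FPKM with Pam3CSK4, against 8.35, 9.24 and 7.55 FPKM in Control (log2 change 5.11 ± 0.19, adjusted p = 2.71e-07), and Cfb, its alternative pathway partner, at 15.9 and 26.3 FPKM with Pam3CSK4, against 0.208, 0.184 and 0.0465 FPKM in Control (log2 change 7.16 ± 0.46, adjusted p = 5.36e-06). C1qa, a microglial subunit of C1q, overlapped (2593 and 2512 FPKM with Pam3CSK4 and 2654, 2677 and 1886 FPKM in Control; adjusted p = 0.842).

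**Figure D4:**
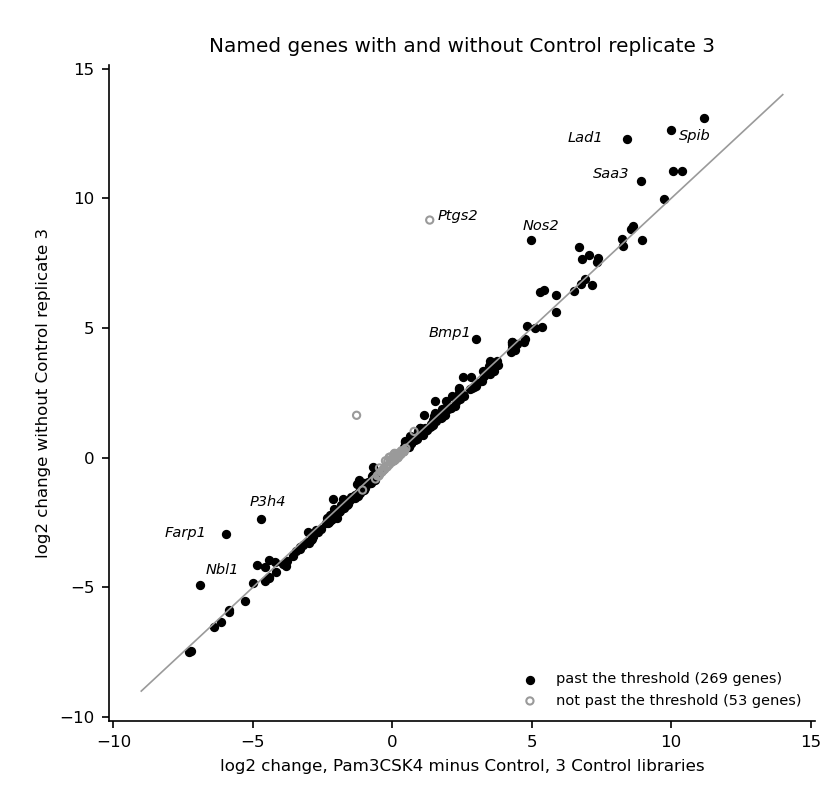
log2 change (Pam3CSK4 minus Control) of the 322 named genes with all 3 Control libraries on the x axis and without Control replicate 3 on the y axis, filled where past the threshold (269 genes) and open where not (53 genes). Most points lie near the line of equal values; the labelled genes lie off it, Ptgs2 by the most, at 1.34 on the x axis and 9.16 on the y axis.

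Of the 322 genes that the naming rule selected, 269 passed the threshold, 153 higher and 116 lower. Leaving out each of the 11 libraries in turn left 225 of the 269 past it every time, and the other 44 lost the call at least once. A few named genes had very different sizes with and without Control replicate 3. Farp1, a guanine nucleotide exchange factor, stood at 0.0831 and 0.109 FPKM with Pam3CSK4, against 0.573, 0.843 and 17.9 FPKM in Control (log2 change -5.97 ± 1.69, adjusted p = 0.0191), and at -2.94 without that library. P3h4, of the collagen-modifying prolyl hydroxylase family, stood at 0.296 and 0.402 FPKM with Pam3CSK4, against 1.55, 1.92 and 25.8 FPKM in Control (log2 change -4.72 ± 1.38, adjusted p = 0.0218), and at -2.38 without it. Both lost the call when either Pam3CSK4 library was left out. Bmp1, the procollagen C-proteinase, rose by 3.00 ± 0.74 with it and by 4.56 without it, at 133 and 141 FPKM with Pam3CSK4, against 5.52, 5.55 and 42.6 FPKM in Control. The mural and fibroblast markers, which summed to 2275 FPKM in that library, moved with these values, and their part in them was not tested.

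By their titles, 3 libraries also received Pam3CSK4 before IFN-gamma, and this pair of groups shares no library with the comparison above. In 2 of those 3, replicates 2 and 3, the treatment label ends the name of the agonist in another digit than the title does, and the title was followed. In Pam3CSK4+IFN-gamma against IFN-gamma, 1856 genes were higher (17.0%) and 1884 lower (17.2%). Of the 2188 genes that rose with Pam3CSK4 alone 1066 also rose there and 110 fell, and of the 2344 that fell 1082 also fell and 76 rose. Of the 269 named genes past the threshold, 198 passed in the same direction, 6 in the opposite direction and 65 did not pass. Adora2a (6.60), Slc6a12 (7.42), Slc7a11 (3.53), Lcn2 (6.62), Acp5 (6.03) and Slco2b1 (-5.69) had log2 changes there of the same sign. The counts of some metabolic lists were unlike those without IFN-gamma. With IFN-gamma present, complex I had 0 rises and 12 falls, complexes III and IV 0 and 6, ATP synthase 0 and 5, glycolysis 2 and 13 and the tricarboxylic acid cycle 2 and 10, against the mostly higher calls given above without it. Sterol synthesis had 0 rises and 20 falls. Other metabolic lists had counts closer to those without it: with IFN-gamma present, glutathione genes had 14 rises and 7 falls, arginine genes 8 and 6, fatty acid synthesis 10 and 8, eicosanoid genes 2 and 10, lysosomal hydrolases 8 and 24 and lipid efflux 5 and 9. The difference between the conditions was not tested for a list as a whole. Where both were given, IFN-gamma for 24 h followed the agonist, so time since the agonist may differ too. It cannot be told apart from the presence of IFN-gamma.

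**Figure D5:**
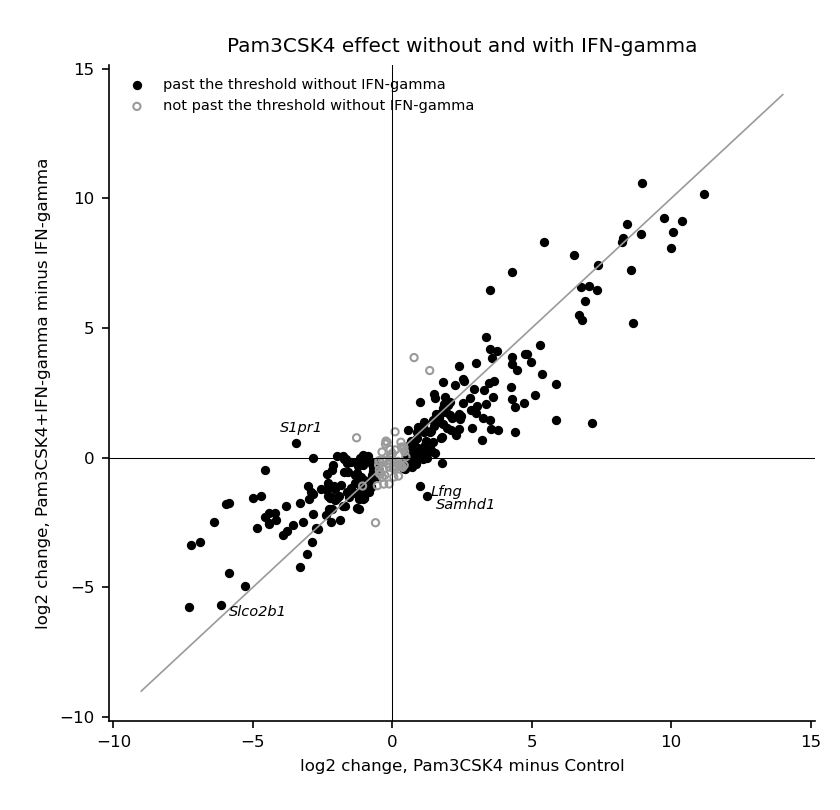
log2 change of the 322 named genes with Pam3CSK4 against Control on the x axis and with Pam3CSK4+IFN-gamma against IFN-gamma on the y axis, filled where past the threshold in the first comparison; the diagonal marks equal values. Most genes keep their sign, and S1pr1, at -3.44 and 0.58, and Samhd1, at 1.25 and -1.48, are among the few that do not.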

How the data were processed

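RNA-seq of 11 libraries of cultured adult mouse microglia in 4 groups was used, and the 5 Pam3CSK4 and Control libraries are compared. The deposited table holds whole-number read counts for 34745 genes, and FPKM values that the authors scaled to gene length and library total, per the file headers and the values. The submitters' processing notes name the mm10 build, Cuffdiff, Cufflinks 2.1.1 and TopHat2 2.1.0 without saying what each did. Which tool counted reads, on which annotation and with which strand setting is not given in the sources used here, so reads of a gene and an antisense partner cannot be told apart. Library totals ran from 15033702 to 20321017 counts.

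Groups were taken from the labels. The 10938 genes that reached an FPKM of 1 in 2 or more libraries were tested on the deposited counts with edgeR 4.0.16 (quasi-likelihood test, TMM factors, two-sided) in R 4.3.3. All 11 libraries entered 1 fit of 4 group means, since Pam3CSK4 has only 2 libraries, with Benjamini-Hochberg adjustment over all tested genes and a threshold of 0.05. Standard errors are the log2 change divided by the root of its F statistic. Alternatives were RLE size factors, DESeq2 1.42.0, limma 3.58.1 on log2(FPKM + 1), no filter, an FPKM minimum of 5, the 5 libraries alone, each library left out, the 3 libraries with mural transcripts left out, and the replicate number as a block.

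The gene lists and the comparison itself were chosen with earlier results of these data known. Genes were named by a rule. It took the 12 largest rises and 12 largest falls, up to 5 members of each list by size of change, the highest uncalled member of each list and a panel of receptor and identity genes. The first 2 kinds needed at least 5 FPKM in the higher group, the same call without Control replicate 3 and no overlap between groups. Of the 24 genes with the largest changes 16 had a RefSeq promoter window. Gene symbols are those of the deposited table, in which 57 symbols occur more than once. A few genes that this rule named are not reported here.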

Additional observations from a re-analysis of the deposited data

Results flagged for a closer look

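Of the named genes, 6 passed the threshold in opposite directions in Pam3CSK4 against Control and in Pam3CSK4+IFN-gamma against IFN-gamma, and for each of them the difference between the log2 changes was itself tested (edgeR quasi-likelihood test of the interaction, with IFN-gamma minus without, adjusted over all genes). The genes were picked for opposite calls in this same fit, so a small p for the difference was nearly fixed beforehand and adds no support. S1pr1 had a difference of 4.02 (adjusted p = 8.38e-05). It stood at 8.04, 8.35 and 7.31 FPKM with Pam3CSK4+IFN-gamma, against 6.31, 4.95 and 4.52 FPKM with IFN-gamma, a log2 change of 0.58 where Pam3CSK4 alone gave -3.44. Samhd1, which encodes a dNTP-degrading enzyme that restricts viruses, had a difference of -2.73 (adjusted p = 0.000217). It stood at 84.7, 84.7 and 89.7 FPKM with Pam3CSK4+IFN-gamma, against 217, 259 and 243 FPKM with IFN-gamma, and at 18.4 and 21.0 FPKM with Pam3CSK4 alone, against 9.64, 7.72 and 7.05 FPKM in Control. Lfng, a glycosyltransferase that modifies Notch receptors, had a difference of -2.08 (adjusted p = 0.00115). It stood at 14.2, 15.3 and 18.9 FPKM with Pam3CSK4+IFN-gamma, against 34.9, 32.9 and 35.1 FPKM with IFN-gamma, and at 16.7 and 22.5 FPKM with Pam3CSK4 alone, against 11.2, 7.57 and 10.7 FPKM in Control.

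The other 3 were housekeeping genes with smaller changes. The ATP synthase subunit gene Atp5g3 had a difference of -0.85 (adjusted p = 0.00625), with log2 changes of -0.41 with IFN-gamma present and 0.44 without it. The protein disulfide isomerase gene Pdia6 had a difference of -0.89 (adjusted p = 0.0107), with -0.42 and 0.46. The transketolase gene Tkt had a difference of -0.78 (adjusted p = 0.0104), with -0.41 and 0.37. The rises of these 3 genes with Pam3CSK4 alone were lost when a library was left out, Atp5g3 without Pam3CSK4 replicate 2, Pdia6 without Control replicate 1, Control replicate 2 or Pam3CSK4 replicate 2, and Tkt without either Pam3CSK4 library.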

How the results depend on the processing

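No named gene past the threshold changed sign under any alternative run. With the Control and Pam3CSK4 libraries alone in the fit, 1314 genes were called higher and 1328 lower, and 41 named genes lost their call. Counts at least 2-fold lower, 1019 in the reported fit, were 602 with an FPKM minimum of 5 and 564 with limma. Leaving out 1 library at a time gave 1410 to 2748 genes higher and 1463 to 2872 lower, and 692 to 992 and 859 to 1116 at least 2-fold, the lowest of these without Pam3CSK4 replicate 2 and the highest without Control replicate 3. A fit without 1 Pam3CSK4 library assumes that the other varies like the other groups. RLE factors, DESeq2, limma without a fold limit, no filter, an FPKM minimum of 5 and the fit without the 3 libraries with mural transcripts gave 1530 to 2882 genes higher and 1709 to 2998 lower.

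With the replicate number as a block, 1962 genes were higher and 2169 lower, and 5 named genes lost and 1 gained the call. The labels do not say what a replicate number marks. With only 2 Pam3CSK4 libraries, whose deviations from their mean mirror each other, correlations of deviations cannot show whether the numbers pair Pam3CSK4 with Control libraries. Between groups in the whole series, same-numbered libraries had correlations of -0.72 to 0.71. The spread within the Pam3CSK4 group is known poorly, and genes at few counts in Control have fitted changes that rest on few reads.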
